A study of Homo sapiens with 10 samples.

Results

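The transcript assembly of polyadenylated RNA from HEK293 cells, which are immortalised human embryonic kidney cells and which the study's methods name as the line 293ATOA, holds loci that carry no gene name and share their position with an annotated gene. These unannotated loci overlapping annotated genes were selected on measured values: an autosomal locus with an assembly number (XLOC) as its only name, a mean of at least 0.5 FPKM in any of 5 groups, and at least 1 base in common with a locus that has a gene name. FPKM counts sequenced fragments relative to transcript length and library size, so it is a relative level per length. There were 584 such loci among 2550 unannotated autosomal loci at 0.5 FPKM or more and 30809 assembled loci in all. Since FPKM chose them, their levels are given as a description. The smallest highest values among them were 0.5017, 0.5026 and 0.5027 FPKM (XLOC_011339, XLOC_012147 and XLOC_018094), and the nearest left out had 0.4974, 0.4974 and 0.4962 FPKM (XLOC_008059, XLOC_027414 and XLOC_026805).

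The 5 groups had 2 libraries each. In siPAP cells, siRNAs depleted the canonical poly(A) polymerases PAPα (PAPOLA) and PAPγ (PAPOLG) for 3 days, and total and nuclear RNA were taken. LALA cells are a stable line that carries PABPN1, the nuclear poly(A)-binding protein, with the substitutions L119A and L136A, integrated in the genome behind a tetracycline-responsive promoter and expressed for 3 days after removal of doxycycline, and only their nuclear RNA was sequenced. Control total and control nuclear RNA complete the 5 groups. Nuclear RNA here is that of the detergent-insoluble nuclear fraction. By the study's account this fraction is enriched for RNA of chromatin and nuclear speckles, and some detergent-soluble nuclear material is lost. The study names both siRNA control cells and untreated parental cells as the control of LALA, and the mutant, the stable line and the control treatment cannot be told apart in that comparison. Every library holds oligo(dT)-selected RNA, so a locus without a poly(A) tail is outside the measurement.

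The deposited table gives only the mean of each group's 2 libraries. No spread between libraries, no test and no interval could be computed, and every ratio below is a ratio of 2 group means. In the check of the targeted genes, PAPOLA had 11.0 FPKM in siPAP total and 79.3 FPKM in control total RNA, and 11.2 and 56.0 FPKM in siPAP and LALA nuclear RNA, against 61.7 FPKM in control nuclear RNA. PAPOLG had 3.64 FPKM in siPAP total and 12.2 FPKM in control total RNA, and 4.46 and 9.74 FPKM in siPAP and LALA nuclear RNA, against 10.6 FPKM in control nuclear RNA. PABPN1 was assembled together with BCL2L2, and that locus had 162 FPKM in LALA nuclear and 89.1 FPKM in control nuclear RNA. Across all autosomal loci the median log2 ratio was -0.06 for siPAP total RNA, -0.08 for siPAP nuclear RNA and -0.16 for LALA nuclear RNA.

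As background, most promoters of human genes are transcribed in both directions. RNA polymerase that leaves upstream makes short-lived RNAs of the other strand, known as promoter upstream transcripts or upstream antisense RNAs, which are usually terminated early at poly(A) signals and degraded in the nucleus by the exosome. PABPN1 binds the growing poly(A) tail and stimulates the poly(A) polymerases, and long tails made in this way can mark nuclear RNA for decay.

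The position of each locus is given as that of the whole group of overlapping transcripts, which the assembly treats as a unit. All 584 loci carried exactly the start and end of a named locus, so their own ends are known only where they set the edge of this span. The 584 loci lay in 418 spans, of which 336 held a single unannotated locus and 82 held several, up to 10. Spans were 3.63 to 1260 kb long, with a median of 89.4 kb. The strand is not in the table either, but the assembly numbers run up each chromosome first through the plus strand and then through the minus strand. Read in this way, the number gave the annotated strand for 94.8% of 19577 named loci and for 98.5% of 10681 protein-coding loci assembled once. It placed 284 of the unannotated loci on the plus strand and 291 on the minus strand, with 9 in a last block of unclear strand.

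By this strand, 211 loci lay opposite to every named locus of their span, 200 shared the span with named loci on both strands, and 164 lay on the same strand as every named locus. With the strand of the named loci taken from GENCODE, 243 were opposite, 71 had both strands, 142 were on the same strand and 128 were unclear. Some spans of the both-strand class hold a single gene name on loci of both strands, such as that of SYT15. The spans held 641 named loci, of which 556 matched GENCODE and 506 were protein-coding. By name, 37 were zinc finger genes, 33 were LOC entries, 23 were microRNA genes and 9 were LINC entries. GENCODE release 44 places a lncRNA that is not among the named loci of the span inside it, on the strand of the unannotated locus, for 199 of the 584 loci (34.1%). For loci opposite to their named genes this was 82 of 211 (38.9%), 11 of which had a gene with the suffix DT, the symbol for a divergent transcript. For loci on the same strand it was 39 of 164 (23.8%), none of them DT. A divergent transcript lies on the strand opposite to its gene, so its absence from the same-strand class was to be foreseen and says nothing. A lncRNA anywhere inside the span was counted, whether or not it overlaps the unannotated locus. No such share was computed for other spans, so no conclusion is drawn from these shares.

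Where a span with an opposite-strand locus runs past the start of its gene, the outer edge may be the assembled end of the unannotated locus, which the table does not state. The last 60 bases before the outer edge are shown for 3 loci that stood out for high ratios in all 3 comparisons, read 5′ to 3′ on the strand of the unannotated locus, away from the gene, on the hg19 build. Capitals mark ATTAAA, a variant of the poly(A) signal, where it occurs. The stretches lie at chr1:19540056-19540115 on the plus strand, 3355 bases before the annotated start of UBR4, a ubiquitin ligase of the N-degron pathway, at chr3:119819836-119819895 on the plus strand, beyond GSK3B, the glycogen synthase kinase, and at chr3:97482126-97482185 on the minus strand, beyond ARL6, a small GTPase of cilia. The 3 were chosen after their values were seen.
XLOC_000193 (UBR4): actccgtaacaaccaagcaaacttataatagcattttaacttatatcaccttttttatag
XLOC_019393 (GSK3B): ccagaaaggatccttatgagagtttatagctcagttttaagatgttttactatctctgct
XLOC_020104 (ARL6): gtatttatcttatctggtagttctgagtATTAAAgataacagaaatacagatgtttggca

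The next 4 had the highest mean FPKM among the loci considered whose edge holds AATAAA, the main poly(A) signal, marked in capitals. Some loci were left out before this ranking, so a locus with a higher mean may be missing. They lie at chr18:76736809-76736868 by SALL3, a zinc finger transcription factor, at chr10:43632278-43632337 by CSGALNACT2, an enzyme of chondroitin sulfate synthesis, at chr17:57695928-57695987 by CLTC, the clathrin heavy chain, and at chr6:15244157-15244216 by JARID2, a subunit of Polycomb complexes, all on the minus strand of genes that run on the plus strand.
XLOC_013221 (SALL3): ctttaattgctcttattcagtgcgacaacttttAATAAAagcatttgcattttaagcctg
XLOC_003712 (CSGALNACT2): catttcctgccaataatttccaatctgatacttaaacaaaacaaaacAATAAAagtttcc
XLOC_012542 (CLTC): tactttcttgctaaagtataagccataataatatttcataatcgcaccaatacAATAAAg
XLOC_023848 (JARID2): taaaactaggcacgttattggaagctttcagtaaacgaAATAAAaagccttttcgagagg

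The spans of loci opposite to their gene ran past the gene's annotated start far more often than other spans. Of 193 such loci with a single named gene whose strand matched the annotation, 160 (82.9%) lay in a span that reached at least 200 bases past the start, by a median of 2150 bases (quartiles 1498 and 3531). Among 7190 other expressed spans with a single named gene, 802 (11.2%) did so, by a median of 374 bases. Past the annotated end the shares were closer, 52 of 193 (26.9%) and 1073 of 7190 (14.9%). In 127 of the 193 the span was extended on the start side only, in 19 on the end side only, in 33 on both and in 14 on neither. An unannotated locus can itself extend a span, but spans without such a locus were also extended. These shares therefore describe the spans, and which transcript set an edge is not known.

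**Figure D1:**
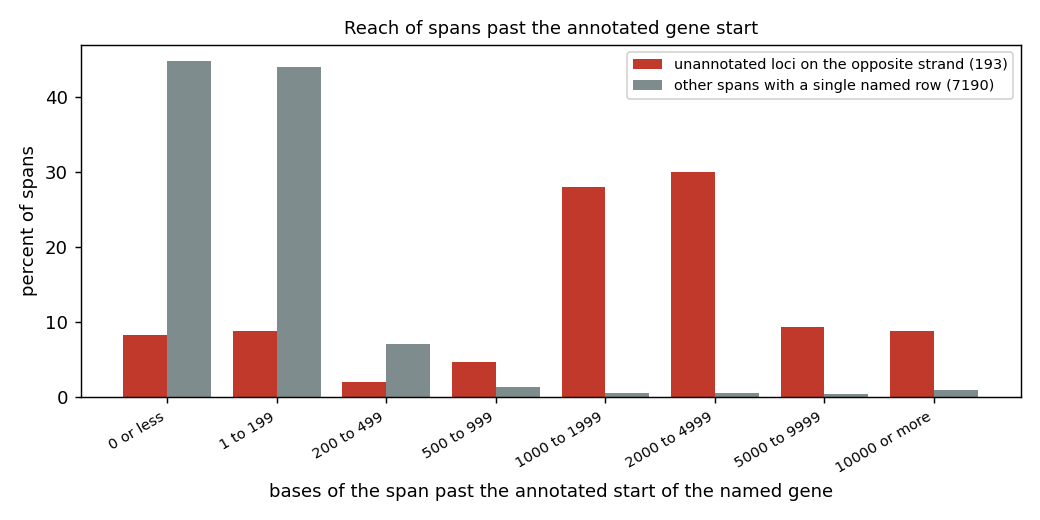
Bars give the percent of spans (y axis) by how many bases the span reached past the annotated start of its named gene (x axis), for 193 unannotated loci on the opposite strand and 7190 other spans with a single named gene. At least 1000 bases are reached by the span for 147 of the unannotated loci and by 191 of the other spans. Unannotated loci that share a span are each counted.

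Few of these edges carried a poly(A) signal. In 157 spans that reached past the start, AATAAA stood in the last 60 bases of 17 (10.8%), at a median of 26 bases from the edge, and on the other strand of 10 (6.37%). ATTAAA stood in 13 (8.28%). In the 802 other spans that reached past the start, AATAAA was found in 1.62% read in the same way, and at the ends of the named genes in the 7190 spans it was found in 3702 (51.5%), also at a median of 26 bases from the edge. The 17 loci with AATAAA had median log2 ratios of 1.23 for siPAP total RNA, 1.39 for siPAP nuclear RNA and 1.5 for LALA nuclear RNA among the 9, 11 and 12 that could be compared, beside 1.52, 1.46 and 1.52 for loci without it.

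The first 1000 bases outside the gene starts differed little in 3 motifs from those of all expressed spans with a single named gene. That larger set includes the genes of these loci. Read on the strand of the unannotated locus, AATAAA occurred in 33.3% of the 144 genes whose span reached at least 1000 bases past the start and in 37.4% of all 7376 expressed spans with a single named gene. GGTAAG and GTAAGT, which resemble a 5′ splice site and overlap each other in 5 letters, occurred in 12.5% and 9.72% of the 144 and in 11.9% and 10.6% of the 7376. On the strand of the gene, AATAAA occurred in 40.3% of the 144 and 42.0% of the 7376. The median GC content was 54.5% in the 144 and 52.6% in the 7376.

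Most unannotated loci overlapping annotated genes were expressed at low levels in every group. Their median was 0.697 FPKM in siPAP total, 0.458 FPKM in control total, 0.784 FPKM in siPAP nuclear, 0.965 FPKM in LALA nuclear and 0.495 FPKM in control nuclear RNA. At least 1 FPKM was reached by 210 loci in siPAP total, 135 in control total, 241 in siPAP nuclear, 283 in LALA nuclear and 153 in control nuclear RNA. In some group, 318 loci had 1 FPKM or more and 23 had 10 FPKM or more. Levels above 0 in every group were found for 566 of the 584.

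The 3 treatment comparisons asked which of these loci were more abundant when poly(A) polymerases were depleted or PABPN1 function was disturbed. Ratios were taken for loci above 0 in both groups with at least 1 FPKM in either, and an at least 2-fold difference was counted. In total RNA, 92 of 220 loci were at least 2-fold higher in siPAP than in control cells and 3 were at least 2-fold lower, beside 5.44% and 1.58% of 12856 autosomal loci of all kinds. In nuclear RNA, 110 of 253 loci were at least 2-fold higher in siPAP cells and 10 lower, beside 6.87% and 2.06% of 13168 loci. In LALA nuclear RNA, 149 of 288 loci were at least 2-fold higher than in control nuclear RNA and 5 lower, beside 7.79% and 0.642% of 13405 loci. The median log2 ratios of the unannotated loci were 0.76, 0.79 and 1.04 in that order of comparisons.

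A locus that passed the level filter only through its treated group had to be higher there. Taking instead the loci with at least 0.5 FPKM in the control group outside the comparison, 80 of 287 were at least 2-fold higher in siPAP total RNA (27.9%, median 0.44), 72 of 263 in siPAP nuclear RNA (27.4%, median 0.40) and 86 of 264 in LALA nuclear RNA (32.6%, median 0.58). The shares of all autosomal loci under that filter were 4.48%, 4.65% and 4.69%. This filter still counts only loci that met the rule of 0.5 FPKM in some group.

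Compared in all 3 at once, 57 of 198 loci were at least 2-fold higher in every comparison and none was at least 2-fold lower in every comparison. The share of all autosomal loci higher in all 3 was 3.35%. It was 111 of 299 (37.1%) for unannotated loci within 5 kb of a named locus and 37 of 255 (14.5%) for those farther away. These counts used the filter of 1 FPKM in either group, which a locus can pass only through its treated groups. They were not taken with the filter on the control group outside the comparison. The nuclear comparisons share their control group, so their agreement is not independent. Other unannotated loci showed shares of the same order. Those within 5 kb of a named locus were at least 2-fold higher in 45.0%, 51.7% and 57.2% of loci compared, and those farther away in 24.6%, 33.9% and 34.2%, beside 41.8%, 43.5% and 51.7% for the loci overlapping genes. Named loci were higher in 3.21%, 3.84% and 3.95%.

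The loci overlapping genes were not alike, and their ratios differed with the strand of the named genes. Loci opposite to every named locus had median log2 ratios of 1.44 for siPAP total RNA (n = 73), 1.45 for siPAP nuclear RNA (n = 93) and 1.58 for LALA nuclear RNA (n = 111). Those on the same strand had medians of 0.19 (n = 53), 0.05 (n = 63) and 0.35 (n = 70). Loci in spans with named loci on both strands lay between them, with 0.64, 0.55 and 0.89. At least 2-fold higher levels were found in 51 of 73, 64 of 93 and 77 of 111 of the opposite-strand loci, and in 11 of 53, 16 of 63 and 23 of 70 of the same-strand loci. With the filter on the control group outside the comparison, the medians were 0.99, 1.02 and 1.11 for opposite-strand loci and 0.16, -0.03 and 0.20 for same-strand loci. In all 3 comparisons at once, 34 of 65 opposite-strand loci and 6 of 48 same-strand loci were at least 2-fold higher. These 2 counts were taken only with the filter of 1 FPKM in either group. The split by strand was made after the data were seen, and loci of 1 span are not independent of each other.

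**Figure D2:**
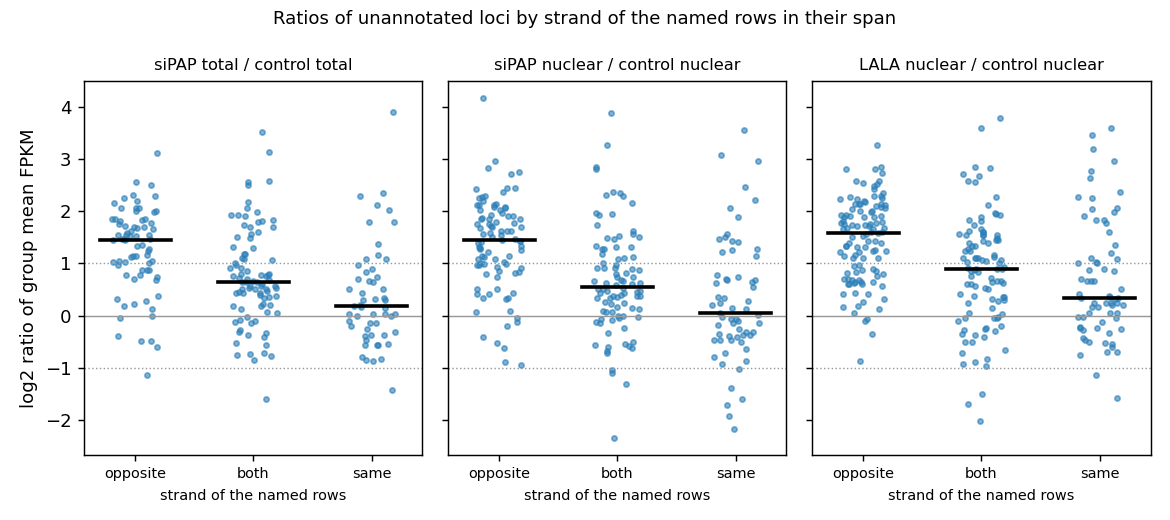
Each point is an unannotated locus, placed by its log2 ratio of group mean FPKM (y axis) and by the strand of the named genes in its span (x axis), with a panel for each treatment comparison. Black lines are medians and dotted lines mark 2-fold. The medians of opposite-strand loci lie at 1.44, 1.45 and 1.58 and those of same-strand loci at 0.19, 0.05 and 0.35.

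Within the opposite-strand class, loci were also divided by the reach of the span past the gene start, with no test of the difference. Loci whose span reached at least 200 bases past the start had medians of 1.44 (n = 57), 1.43 (n = 73) and 1.52 (n = 82), and those whose span did not had 1.47 (n = 11), 1.63 (n = 13) and 1.78 (n = 20). At least 2-fold higher were 71.9%, 68.5% and 69.5% of those that reached past the start and 63.6%, 84.6% and 85.0% of those that did not. With the filter on the control group outside the comparison, the medians were 1.05 (n = 67), 1.18 (n = 52) and 1.11 (n = 52) past the start and 0.84 (n = 12), 0.99 (n = 13) and 1.67 (n = 13) otherwise, so the order in the siPAP comparisons turned with the filter. In LALA over siPAP nuclear RNA, 7 of 93 loci whose span reached past the start and 8 of 24 others were at least 2-fold higher. The share of all autosomal loci was 2.88%. With at least 0.5 FPKM in control total RNA these counts were 0 of 52 and 3 of 13, beside 2.47% of all autosomal loci. Loci that share a span were counted separately, and the groups of others are small. Opposite-strand loci with no GENCODE lncRNA of their strand in the span had medians of 1.44, 1.49 and 1.63 over 46, 54 and 66 loci. The loci with a DT gene had 1.36, 1.28 and 1.64 over 4, 5 and 8 loci.

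The named genes on the other strand had ratios near 1 while the unannotated loci were higher. For opposite-strand loci with a single named gene, where both could be compared, the median log2 ratio was 1.45 for the unannotated locus and 0.01 for the gene in siPAP total RNA (70 pairs). It was 1.48 and -0.01 in siPAP nuclear RNA (88 pairs), and 1.60 and -0.20 in LALA nuclear RNA (107 pairs). The ratio of the unannotated locus was above that of its gene in 66 of 70, 83 of 88 and 106 of 107 pairs. Many of these loci passed the level filter only through the treated group and had to be higher there, which was not so for most genes. With at least 0.5 FPKM for both in the control group outside the comparison, the median was 1.02 for the unannotated locus and -0.02 for the gene in siPAP total RNA, 1.13 and -0.01 in siPAP nuclear RNA, and 1.15 and -0.19 in LALA nuclear RNA. The unannotated locus was then above its gene in 69 of 83, 60 of 69 and 67 of 69 pairs. With the first filter, of the 50, 62 and 76 unannotated loci that were at least 2-fold higher, 49, 61 and 76 had a gene that was not. Such genes were rare in any case. The gene was at least 2-fold higher in 1 of 70, 1 of 88 and 0 of 107 pairs, beside 3.21%, 3.84% and 3.95% of all named autosomal loci. A gene that faces several unannotated loci, such as HES4 or FUT11, was counted in each of its pairs. Across pairs, Pearson's r between the 2 ratios was 0.06, 0.01 and 0.09 and Spearman's rank coefficient was -0.05, -0.08 and 0.01, given as a description over loci that share the same libraries.

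**Figure D3:**
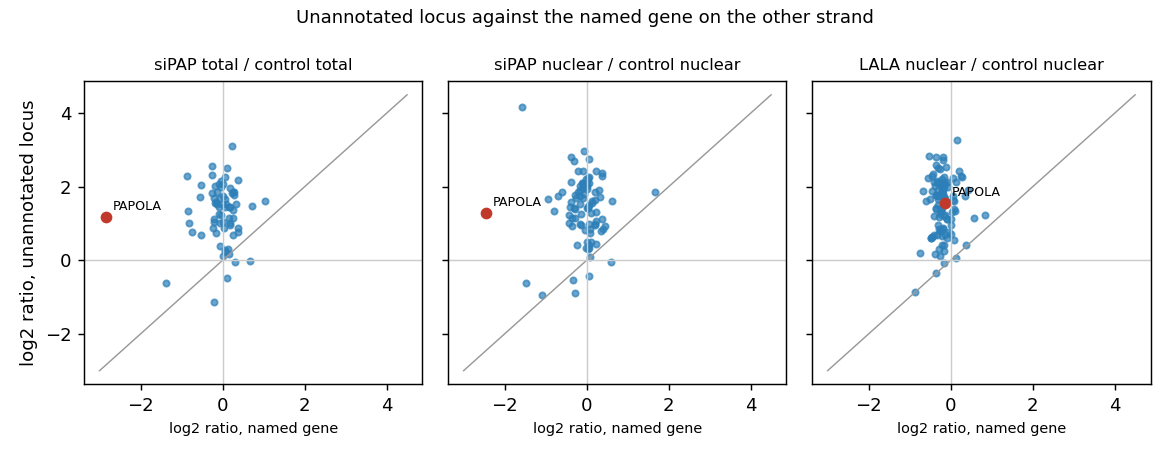
Each point is an opposite-strand locus with a single named gene, with the log2 ratio of the gene on the x axis and that of the unannotated locus on the y axis, with a panel for each treatment comparison (70, 88 and 107 pairs). The diagonal marks equal ratios, and the points form a column near an x value of 0, with PAPOLA in red at -2.85, -2.46 and -0.14 on the x axis.

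A gene targeted by the siRNAs had such a locus on its other strand. XLOC_008909, on the minus strand of the PAPOLA span on chromosome 14, had 1.19 FPKM in siPAP total and 0.530 FPKM in control total RNA. It had 1.38 and 1.68 FPKM in siPAP and LALA nuclear RNA, against 0.569 FPKM in control nuclear RNA. Its log2 ratios were 1.17, 1.28 and 1.56, while those of PAPOLA were -2.85, -2.46 and -0.14. Its span reached 1105 bases past the PAPOLA start and contains PAPOLA-DT in GENCODE. No unannotated locus that met the rule lay in the span of PAPOLG.

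In level, the opposite-strand loci were a small fraction of the gene they faced. The median was 4.61% of the gene's FPKM in siPAP total, 2.13% in control total, 5.75% in siPAP nuclear, 7.08% in LALA nuclear and 2.06% in control nuclear RNA, over 202 pairs. The unannotated locus exceeded its gene in 6 pairs in siPAP total, 3 in control total, 6 in siPAP nuclear, 10 in LALA nuclear and 3 in control nuclear RNA.

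UBR4 gave such a pair. XLOC_000193, opposite to UBR4, had 25.5 FPKM in siPAP total and 6.34 FPKM in control total RNA, and 31.5 and 33.8 FPKM in siPAP and LALA nuclear RNA, against 8.07 FPKM in control nuclear RNA. All treated means were above both control means, with log2 ratios of 2.01, 1.97 and 2.07. UBR4 itself had 21.2 FPKM in siPAP total and 24.2 FPKM in control total RNA, and 21.5 and 20.4 FPKM in siPAP and LALA nuclear RNA, against 22.8 FPKM in control nuclear RNA. The unannotated locus thus lay above UBR4 in the treated groups and below it in the controls.

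TBC1D22A showed the same crossing. XLOC_018918, opposite to TBC1D22A, had 22.7 FPKM in siPAP total and 10.3 FPKM in control total RNA, and 41.8 and 27.4 FPKM in siPAP and LALA nuclear RNA, against 12.7 FPKM in control nuclear RNA. TBC1D22A had 20.5 FPKM in siPAP total and 18.3 FPKM in control total RNA, and 17.5 and 13.2 FPKM in siPAP and LALA nuclear RNA, against 14.1 FPKM in control nuclear RNA. Its span runs 50438 bases past the annotated end of TBC1D22A and holds TBC1D22A-AS1.

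The 10 loci with the highest smallest ratio over the 3 comparisons included 6 on the opposite strand. XLOC_019393, opposite to GSK3B, had 7.24 FPKM in siPAP total and 1.63 FPKM in control total RNA, and 8.76 and 8.26 FPKM in siPAP and LALA nuclear RNA, against 2.06 FPKM in control nuclear RNA. Its ratios of 4.43, 4.25 and 4.01 were close to each other, and GSK3B had log2 ratios of -0.03, 0.01 and -0.17.

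XLOC_029293, opposite to ARPC5L, a subunit of the actin-nucleating Arp2/3 complex, had 5.02 FPKM in siPAP total and 1.27 FPKM in control total RNA, and 8.78 and 9.49 FPKM in siPAP and LALA nuclear RNA, against 1.62 FPKM in control nuclear RNA. XLOC_021324, opposite to the joined locus of ARL9 and SRP72, a small GTPase and a protein of the signal recognition particle, had 4.21 FPKM in siPAP total and 1.05 FPKM in control total RNA, and 4.84 and 4.91 FPKM in siPAP and LALA nuclear RNA, against 1.14 FPKM in control nuclear RNA. Both were higher in every treated group than in every control group.

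XLOC_003854, opposite to FUT11, a fucosyltransferase, had 3.08 FPKM in siPAP total and 0.676 FPKM in control total RNA, and 3.51 and 3.38 FPKM in siPAP and LALA nuclear RNA, against 0.717 FPKM in control nuclear RNA. XLOC_020104, opposite to ARL6, had 2.87 FPKM in siPAP total and 0.683 FPKM in control total RNA, and 4.23 and 2.68 FPKM in siPAP and LALA nuclear RNA, against 0.544 FPKM in control nuclear RNA. The FUT11 span reached 13 bases past the annotated start and 1764 bases past the annotated end.

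**Figure D4:**
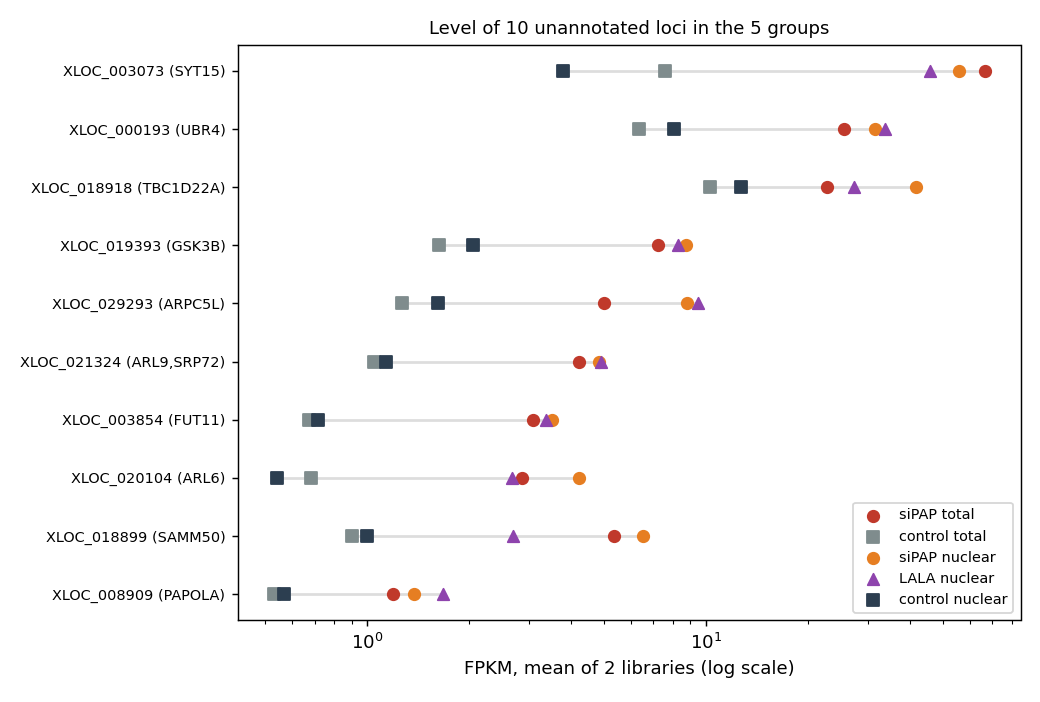
Points give the mean FPKM of 2 libraries (x axis, log scale) of 10 unannotated loci chosen after their values were seen, not the 10 with the highest smallest ratio, each named with a gene of its span, in siPAP total, control total, siPAP nuclear, LALA nuclear and control nuclear RNA, with grey lines from the lowest to the highest mean. In all 10 the 3 treated means lie to the right of both control means, for example 25.5, 31.5 and 33.8 against 6.34 and 8.07 FPKM for XLOC_000193.

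The other 4 of the 10 loci with the highest smallest ratio lay on the same strand as a named gene or in spans with named loci on both strands. XLOC_003073 on chromosome 10 had the highest smallest ratio, with 66.6 FPKM in siPAP total and 7.56 FPKM in control total RNA, and 55.8 and 45.8 FPKM in siPAP and LALA nuclear RNA, against 3.79 FPKM in control nuclear RNA. Its log2 ratios were 3.14, 3.88 and 3.6. Its span holds 4 loci named SYT15, a synaptotagmin, on both strands, and contains SYT15-AS1. A near-identical copy of this region lies on the same chromosome, so how reads were shared between copies is uncertain.

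XLOC_000589, in the span of NEXN, DNAJB4 and FUBP1, had 1.95 FPKM in siPAP total and 0.329 FPKM in control total RNA, and 2.86 and 4.0 FPKM in siPAP and LALA nuclear RNA, against 0.554 FPKM in control nuclear RNA. It lies on the strand of NEXN and DNAJB4, a heat shock protein cofactor, and opposite to FUBP1, a regulator of MYC. The other 5 unannotated loci of the span, XLOC_000585 to XLOC_000588 and XLOC_000590, had log2 ratios of 1.06 to 1.92 for siPAP total RNA, 1.51 to 2.34 for siPAP nuclear RNA and 1.0 to 1.96 for LALA nuclear RNA, with XLOC_000590 the lowest in each.

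Among same-strand loci, XLOC_023348 in the GLTSCR1L span had 11.8 FPKM in siPAP total and 2.92 FPKM in control total RNA, and 12.9 and 11.0 FPKM in siPAP and LALA nuclear RNA, against 2.79 FPKM in control nuclear RNA. GLTSCR1L itself had log2 ratios of -0.02, -0.22 and -0.58. XLOC_009910, in the span of HOMER2, a scaffold protein of synapses, had 1.06 FPKM in siPAP total and 0.207 FPKM in control total RNA, and 1.21 and 1.15 FPKM in siPAP and LALA nuclear RNA, against 0.103 FPKM in control nuclear RNA. HOMER2 had log2 ratios of -0.52, -0.47 and -0.48. Both loci were at least 2-fold higher in all 3 comparisons, while their named genes were not.

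Single comparisons gave larger ratios at lower levels. The highest ratio in siPAP nuclear RNA was that of XLOC_000947, opposite to UBE2Q1, a ubiquitin-conjugating enzyme, with 0.409 FPKM in siPAP total and 0.193 FPKM in control total RNA, and 1.23 and 0.369 FPKM in siPAP and LALA nuclear RNA, against 0.0684 FPKM in control nuclear RNA. Its log2 ratio was 4.17 in siPAP nuclear RNA, where UBE2Q1 had -1.58. In siPAP total RNA the highest were XLOC_028042 in the span of LRP12, a lipoprotein receptor relative, with 1.07 against 0.0709 FPKM in control total RNA, and XLOC_003879 in the span of BEND3P3, with 1.52 against 0.133 FPKM. In LALA nuclear RNA, XLOC_001785 in the span of FAM229A had 1.16 FPKM against 0.0846 FPKM in control nuclear RNA, a log2 ratio of 3.78. Control means this low leave the size of such ratios uncertain.

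Some loci were much higher in one nuclear comparison than in the other. XLOC_013860, on the strand of ARHGAP35, a GTPase-activating protein, had 7.13 FPKM in LALA nuclear and 1.62 FPKM in siPAP nuclear RNA, against 0.586 FPKM in control nuclear RNA, with 0.681 FPKM in siPAP total and 1.00 FPKM in control total RNA. XLOC_013861 of the same span had 7.46 FPKM in LALA nuclear and 2.31 FPKM in siPAP nuclear RNA, against 0.817 FPKM in control nuclear RNA, with 1.78 FPKM in siPAP total and 0.843 FPKM in control total RNA. XLOC_003552, in a span with MTG1 and PAOX, a polyamine oxidase, had 44 FPKM in siPAP nuclear and 10 FPKM in LALA nuclear RNA, against 6.28 FPKM in control nuclear RNA, with 16.3 FPKM in siPAP total and 5.79 FPKM in control total RNA. XLOC_018899, opposite to SAMM50, which inserts proteins into the mitochondrial outer membrane, had 6.52 FPKM in siPAP nuclear and 2.69 FPKM in LALA nuclear RNA, against 1.00 FPKM in control nuclear RNA, with 5.35 FPKM in siPAP total and 0.906 FPKM in control total RNA. XLOC_013861 and XLOC_018899 were at least 2-fold higher in all 3 comparisons.

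Set side by side, LALA nuclear over siPAP nuclear RNA gave at least 2-fold higher levels for 46 of 310 loci and at least 2-fold lower levels for 18, beside 2.88% and 1.26% of 13485 autosomal loci. The median log2 ratio was 0.22. It was 0.22 for opposite-strand, 0.13 for both-strand and 0.27 for same-strand loci, so the classes that differed against control differed little between the treatments.

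Lower loci were few, but their share was above that of all autosomal loci in both nuclear comparisons. For siPAP it was 3.95% against 2.06%, and for LALA 1.74% against 0.642%. The total RNA comparison had 1.36% against 1.58%. Unannotated loci within 5 kb of a named locus had 3.37% for siPAP nuclear, 2.75% for LALA nuclear and 4.2% for siPAP total RNA. Those farther away had 6.31%, 3.99% and 6.83%. A share above that of all autosomal loci was thus not particular to loci overlapping genes. Among same-strand loci, 6 of 63 (9.52%) were at least 2-fold lower in the siPAP nuclear comparison, 2 of 70 in the LALA comparison and 1 of 53 in total RNA. At least 2-fold lower levels in at least 2 treatment comparisons were found for XLOC_018612, XLOC_003101 and XLOC_015291. XLOC_015291, on the strand of SIX3, a homeobox factor of forebrain and eye development, had 1.78 and 1.80 FPKM in siPAP and LALA nuclear RNA, against 5.36 FPKM in control nuclear RNA, and 2.53 FPKM in siPAP total and 3.29 FPKM in control total RNA. SIX3 itself had log2 ratios of 0.35 and 0.20 in the nuclear comparisons. XLOC_003101, on the strand of AGAP6, had 1.74 and 2.58 FPKM in siPAP and LALA nuclear RNA, against 5.68 FPKM in control nuclear RNA. Its span neighbour XLOC_003104 was lower in total RNA, with 3.02 FPKM in siPAP and 8.17 FPKM in control cells. AGAP6 belongs to a family of near-identical copies, so these values are uncertain.

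The lowest ratio in siPAP nuclear RNA after XLOC_018612 was that of XLOC_014163 on the strand of ZNF134, a zinc finger gene, with 0.262 FPKM in siPAP nuclear, 0.707 FPKM in LALA nuclear and 1.19 FPKM in control nuclear RNA. In LALA nuclear RNA, XLOC_012402 had 1.55 FPKM against 5.02 FPKM in control nuclear RNA, while siPAP nuclear RNA had 6.88 FPKM. Its span holds 6 named loci, among them EFTUD2, a spliceosomal GTPase, and KIF18B, a mitotic kinesin. The only opposite-strand locus at least 2-fold lower in any treatment comparison was XLOC_021721 by BRD9 and ZDHHC11, with 2.82 FPKM in siPAP total and 6.16 FPKM in control total RNA.

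The 2 highest mean levels belonged to loci in repeated regions. XLOC_008533, in the span of LOC101101776 on chromosome 14, had 143 FPKM in siPAP total RNA and was listed at 0 in control total RNA, with 93.6 and 30.9 FPKM in siPAP and LALA nuclear RNA, against 41.4 FPKM in control nuclear RNA. In the nuclear fraction its ratio to control was 2.26 in siPAP cells and 0.747 in LALA cells, and no ratio can be given in total RNA. XLOC_003885, in the span of BEND3P3 on chromosome 10, had 36.1 FPKM in siPAP total and 39.1 FPKM in control total RNA, and 46.7 and 66.4 FPKM in siPAP and LALA nuclear RNA, against 30.3 FPKM in control nuclear RNA. LOC101101776 also names loci on chromosome 22, and the division of reads between such copies was not tested.

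A listed 0 in a control group occurred for 13 loci, and no ratio was taken there. XLOC_010668, in the span of FLJ42627 and ERVK13-1, had 5.41 FPKM in siPAP total RNA and was listed at 0 in control total RNA, with 6.51 and 8.25 FPKM in siPAP and LALA nuclear RNA, against 2.71 FPKM in control nuclear RNA. XLOC_026189 had 8.11 and 2.5 FPKM in siPAP and LALA nuclear RNA and was listed at 0 in control nuclear RNA, although control total RNA had 1.78 FPKM and siPAP total RNA 0.593 FPKM. Without counts, a listed 0 cannot be told apart from a failed estimate.

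Comparing fractions, 14 of 160 loci were at least 2-fold higher in control nuclear than in control total RNA and 3 were lower, beside 1.20% and 0.518% of 12547 autosomal loci, with a median log2 ratio of 0.20. In siPAP cells, 15 of 251 loci were at least 2-fold higher in nuclear than in total RNA and 3 were lower, beside 1.04% and 0.386% of 12963 loci, with a median of 0.26. Opposite-strand loci had medians of 0.29 in control and 0.38 in siPAP cells, and none of 37 with at least 1 FPKM in either control fraction was 2-fold apart between them. Among 86 with at least 0.5 FPKM in control nuclear RNA, 4 were at least 2-fold higher there than in control total RNA. Under that filter the share of all autosomal loci was 1.71% of 13860. The filter uses the nuclear group of this same ratio, so it favours loci that are higher there, and no conclusion is drawn from this count. The highest ratios of the insoluble nuclear fraction to total RNA in control cells were those of XLOC_018612, XLOC_022387, XLOC_026893, XLOC_022577 and XLOC_014321, none on the opposite strand. Their log2 ratios were 3.55, 2.23, 2.08, 1.92 and 1.9. XLOC_014321, in the span of ACSBG2, an acyl-CoA synthetase, had 13.6 FPKM in control nuclear and 3.65 FPKM in control total RNA, and 22.8 FPKM in siPAP nuclear and 6.25 FPKM in siPAP total RNA. At the other end, XLOC_018367, on the strand of ADRBK2, a receptor kinase, had 2.15 FPKM in control nuclear and 7.18 FPKM in control total RNA, and 18.0 FPKM in siPAP nuclear and 25.1 FPKM in siPAP total RNA.

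Grouped by the names in their spans, the loci beside zinc finger genes were at least 2-fold higher for 5 of 11 in siPAP total RNA, 7 of 13 in siPAP nuclear RNA and 12 of 18 in LALA nuclear RNA, with median log2 ratios of 0.96, 1.09 and 1.16. Loci in spans with LOC entries were higher in 10 of 38, 10 of 38 and 16 of 40, with medians of 0.67, 0.60 and 0.54. Loci in spans with microRNA genes were higher in 1 of 6, 2 of 8 and 4 of 10. Loci in spans with LINC entries, 11 or 12 of them compared, had medians of 0.44, 0.45 and 0.76. These groups are small and overlap, and they are given as counts beside the shares of all autosomal loci above.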

How the data were processed

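Stranded mRNA libraries of 10 samples, 2 for each of 5 groups, were mapped by the authors with TopHat2 and assembled with Cufflinks, guided by hg19 annotation. The deposited values are FPKM, which the authors computed with Cuffdiff as the mean of each group. The sources used here give neither library depth nor values of single libraries, and no SD, interval or test was computed. The deposited columns of fold changes, test scores, p-values and q-values hold the authors' own comparisons and were not used, nor were their edgeR results.

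Log2 ratios of 2 group means were computed in Python 3.11.15 with pandas 2.3.3, with no pseudocount, for loci above 0 in both groups with at least 1 FPKM in either. The strand was read from the order of assembly numbers and checked against GENCODE release 44 on hg19. Deposited starts, counted from 0, were raised by 1. Sequences were read from the hg19 genome. The helper functions were tested on simulated data. Members, lists and the rule for named loci were chosen with earlier results of these data known. The rule takes the 10 highest means, the 6 highest and 6 lowest ratios of each treatment comparison, the 10 highest smallest ratios, loci at least 2-fold lower in 2 comparisons or in opposite directions, the 5 highest and lowest nuclear to total ratios and 5 loci at 0 in a control group. Some loci that the rule takes are not reported here.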

Additional observations from a re-analysis of the deposited data

Results flagged for a closer look

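XLOC_018612, in the span of LOC101101776 on chromosome 22, was at least 2-fold apart in opposite directions between the 2 fractions of siPAP cells. Its log2 ratio of siPAP over control was 1.99 in total RNA, with 4.08 FPKM in siPAP and 1.02 FPKM in control cells. In nuclear RNA it was -2.34, with 2.37 FPKM in siPAP and 12 FPKM in control cells. The difference was not tested, since only group means exist. Control nuclear RNA was the group that stood apart, at 12 FPKM beside 1.02 to 4.08 FPKM in the other 4. LOC101101776 also names loci on chromosome 14, and the division of reads between such copies was not tested.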

How the results depend on the processing

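No paired analysis was possible because the table holds only group means, and for the same reason no library could be left out. Restricting the loci to those whose start or end differs from every named locus left none, so this was not run. Requiring that a named locus covers at least 50% of the unannotated locus changed nothing, since all 584 met it. A minimum of 1 FPKM in any group left 318 loci, and any level above 0 gave 891. Values below are in the order siPAP total, siPAP nuclear, LALA nuclear over control. At 1.5-fold, 13, 23 and 17 loci were lower. At 3-fold, 54, 63 and 93 were higher and 1, 5 and 2 lower. With 1 FPKM added to each mean, 38, 51 and 60 were at least 2-fold higher and 1, 5 and 3 lower, with medians of 0.46, 0.48 and 0.59. With 0.1 FPKM added, the medians were 0.7, 0.75 and 0.98. Without a filter on low values, 219, 231 and 299 were higher and, in the siPAP comparisons, 13 and 26 lower, with medians of 0.7 in both of those. With at least 0.5 FPKM in the control group outside the comparison, the nuclear comparisons had 72 and 86 higher, the total comparison had 5 lower, and the medians were 0.44, 0.4 and 0.58. Centring on all loci gave medians of 0.82, 0.88 and 1.2. The nuclear to total median became 0.14 in control cells with 1 FPKM added, and 0.25 and 0.16 in siPAP cells with 0.1 and 1 FPKM added. No alternative turned the direction of a median over all 584 loci.

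The alternatives for the strand classes and pairs were chosen after seeing the data. Opposite-strand medians were 1.25, 1.39 and 1.54 with the strand of the named genes from GENCODE, 0.99, 1.02 and 1.11 with the control filter, and 0.65, 0.73 and 0.77 with 1 FPKM added. In spans with a single unannotated locus, the LALA median was 1.59. With the control filter on both loci of a pair, the opposite-strand locus was above its gene in 67 pairs for LALA. Same-strand medians were 0.16 and -0.06 for the siPAP comparisons with the GENCODE strand, 0.16, -0.03 and 0.2 with the control filter, 0.03, 0.34 and 0.31 in spans with a single unannotated locus, and 0.13, 0.04 and 0.22 with 1 FPKM added. The same-strand median of siPAP nuclear RNA thus turned from 0.05 to a value below 0 in a pair of settings, and the cause was not tested. Under each setting the opposite-strand median was above the same-strand median. Levels near 0.5 FPKM limit the precision by an amount that the table does not show.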
